A study of Mus musculus with 2 samples.

Results

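The cells described here were 509 fibroblasts of the wild-type mouse colon with high Pi16, Pcolce2 and Cd81, called Pi16/Cd81-high cells below. The study's second type of crypt bottom fibroblast had higher, but not exclusive, Grem1 and Cd81. The Pi16/Cd81-high cells were aimed at that type and were not matched to its cluster. They were picked from 7495 cells of 1 library by the values of 9 genes: Epcam under 5, Col1a1 of 5 or more, Cd34 of 1 or more, Pecam1 at 0, Myh11 under 5, Rgs5 under 10, and Pi16, Pcolce2 and Cd81 adding up to 5 or more. They made up 6.79% of the library (95% Clopper-Pearson interval 6.23 to 7.38) and 16.1% of its 3160 cells with Col1a1 of 5 or more and Epcam under 5, called Col1a1 cells here. The whole series held 11904 cells in 2 libraries.

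The wild-type library was made from the colon of 3 female C57BL/6 mice, 8 to 12 weeks old, whose epithelial and mesenchymal cells were sorted by EpCAM and CD45 and mixed in equal parts before loading with a V3 kit. The second library held GFP-positive mesenchymal cells of 3 female Pdgfra-H2B-eGFP mice, which carry a nuclear green reporter at the Pdgfra locus, loaded with a V2 kit. The mice of a library were pooled and cells were not assigned to mice, so each library is 1 sample, no test across animals could be made, and the values below are descriptions of these libraries. The sort of the reporter library kept only GFP-positive cells.

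Fibroblasts of the gut wall form the connective tissue under the epithelium and send signals to it. Stem cells at the crypt bottom depend on Wnt signals and R-spondins, which keep them dividing, and on antagonists of BMP such as Gremlin 1, while BMP ligands act towards the crypt top, where cells differentiate. Pi16, a peptidase inhibitor, marks fibroblasts of the outer coat of vessels and of loose connective tissue in many organs, and Cd81 is a tetraspanin of the cell surface.

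All values are corrected counts, the whole numbers that the authors' model returned after removing differences in depth between cells, averaged over the cells of a class. The Pi16/Cd81-high cells had a median total of 8639 corrected counts and 2780 genes per cell. The other 2651 Col1a1 cells had medians of 8426 and 2624. The share of corrected counts from mitochondrial genes had a median of 5.97% in the Pi16/Cd81-high cells and 8.94% in the other Col1a1 cells, a difference whose part in the results was not tested. The libraries shared 1 cell barcode.

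The marker genes Pi16, Pcolce2 and Cd81 were above 0 in unequal shares of the cells. Pi16 had a lowest, median and highest value of 0, 1 and 85 in the Pi16/Cd81-high cells and was above 0 in 285 of the 509 (56.0%). Pcolce2, an enhancer of procollagen processing, had 0, 5 and 23 and was above 0 in 428 cells. Cd81 had 0, 7 and 22 and was above 0 in 502 cells. These genes chose the cells, so their level is no finding. The route to the limit differed between cells: 450 (88.4%) had Pi16 or Pcolce2 above 0, 263 had both, and 59 (11.6%) reached it by Cd81 alone. Cd81 is also made by epithelium, where 72.2% of 2461 epithelial cells (Epcam of 5 or more, Col1a1 at 0, median 3199 genes) were above 0 with a mean of 2.19. Pi16 was above 0 in 0.406% of those epithelial cells.

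Promoter sequences are shown for Pi16 and for C3 and Grem1, the genes on which the description of these cells turns: the gene that names the cells, a gene found in most of them, and a gene that split them. Each runs 5′ to 3′ on the strand of the gene from 250 bases before to 50 bases after the RefSeq start on GRCm38.p6. Capitals mark TATAAA, the AP-1 letters TGANTCA, the CEBP letters TTGCNNAA and the KLF letters CACCC, on either strand. The E-box letters CANNTG were searched too and are not marked.
Pi16, chr17:29318632-29318931, plus strand: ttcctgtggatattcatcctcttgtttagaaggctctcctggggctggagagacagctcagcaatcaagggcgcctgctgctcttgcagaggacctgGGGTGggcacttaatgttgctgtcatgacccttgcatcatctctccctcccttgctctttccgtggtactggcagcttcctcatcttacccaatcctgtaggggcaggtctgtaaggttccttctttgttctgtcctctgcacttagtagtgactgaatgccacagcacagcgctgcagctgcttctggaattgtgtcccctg
C3, chr17:57228087-57228386, minus strand: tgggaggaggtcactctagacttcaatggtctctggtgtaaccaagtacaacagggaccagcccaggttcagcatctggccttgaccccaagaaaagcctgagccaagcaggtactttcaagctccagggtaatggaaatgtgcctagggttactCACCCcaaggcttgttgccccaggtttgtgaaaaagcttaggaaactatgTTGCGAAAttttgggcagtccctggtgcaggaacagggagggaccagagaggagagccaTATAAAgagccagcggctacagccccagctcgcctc
Grem1, chr2:113758599-113758898, minus strand: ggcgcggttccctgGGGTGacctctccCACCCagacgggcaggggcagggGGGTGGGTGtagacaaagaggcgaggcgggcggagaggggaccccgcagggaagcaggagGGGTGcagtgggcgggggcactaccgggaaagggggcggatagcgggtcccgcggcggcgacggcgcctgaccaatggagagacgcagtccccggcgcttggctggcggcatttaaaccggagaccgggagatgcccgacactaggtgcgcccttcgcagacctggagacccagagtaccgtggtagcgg
The C3 window held 1 TATAAA, 1 CEBP match and 1 KLF match. The Grem1 window held 5 KLF matches, of which a pair share a base, and no match to the other marked motifs. The Pi16 window held 1 KLF match and none of the others marked. No match of one motif overlapped that of another. Of 27025 RefSeq promoters of the same length, 14.2% held TATAAA, 10.8% the CEBP letters, 7.93% the AP-1 letters, 56.7% the KLF letters and 72.1% the E-box letters. Of the genes at least 2-fold higher in Pi16/Cd81-high cells than in the nearest fibroblasts, 292 matched a promoter, and 64.4% of these held the KLF letters against 63.2% of the 6409 compared genes that matched. The shares were 12% and 8.18% for the CEBP letters, 12.3% and 6.68% for TATAAA, 6.16% and 4.49% for the AP-1 letters, and 62.7% and 60.7% for the E-box letters. A match is only a run of letters.

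Of the given markers, C3 and Grem1 were outside the rule. C3 is the central protein of complement. Its lowest, median and highest values were 0, 13 and 91, its mean was 16.1, and it was above 0 in 84.3% of the Pi16/Cd81-high cells (80.8 to 87.3). In the other Col1a1 cells the mean was 0.447 and 8.45% were above 0, and in epithelial cells 0.406% were. Grem1, the BMP antagonist Gremlin 1, had 0, 0 and 61 with a mean of 3.92, and was above 0 in 41.8% of the cells (37.5 to 46.3). In the other Col1a1 cells its mean was 0.587. Most Pi16/Cd81-high cells thus had C3 above 0, and more of them had Grem1 at 0 than above it.

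**Figure D1:**
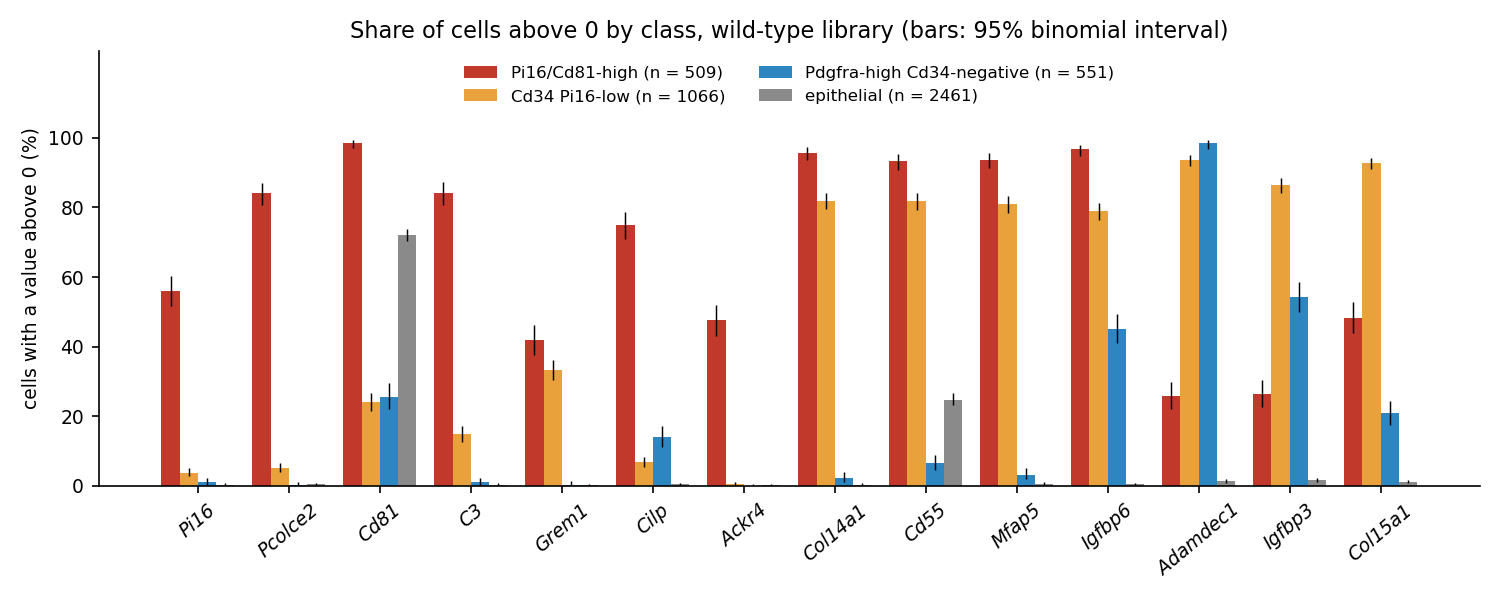
Percent of cells with a corrected count above 0 (y axis) for 14 genes (x axis) in the Pi16/Cd81-high cells (509), Cd34+ Pi16-low cells (1066), Pdgfra-high Cd34- cells (551) and epithelial cells (2461) of the wild-type library, with 95% Clopper-Pearson intervals for counting error. Pi16, Pcolce2 and Cd81 chose the cells. C3 stood at 84.3% and Cilp at 74.9% in the Pi16/Cd81-high cells, and Adamdec1 at 25.7% there against 93.5% in Cd34+ Pi16-low cells.

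The comparison the selection calls for set the Pi16/Cd81-high cells against all other Col1a1 cells. A gene was compared when its mean reached 0.1 in either class, and counted when the ratio of means, with 0.01 added to each, reached 2-fold. Leaving out the 9 genes of the rule, 467 of 8351 genes were at least 2-fold higher (5.59%) and 523 at least 2-fold lower (6.26%), with a median log2 ratio of 0.02 over all genes. Because the cells were chosen on values of the same library, these counts describe the choice and carry no test. The 15 highest ratios among genes found in at least 10% of the cells belonged to Myoc, Ackr4, C3, Has1, Cilp, Inmt, Npy1r, Sfrp4, Angptl1, Cmah, Adgrg2, Adamtsl3, Apod, 1700019D03Rik and Ebf1. Cilp, a matrix protein of cartilage that binds growth factors, had 0, 6 and 40 as lowest, median and highest values, with a mean of 7.70 against 0.257. Ackr4, a scavenging receptor for chemokines, averaged 1.31 against 0.0272. Ebf1, a transcription factor of B cell and fat cell precursors, averaged 6.16 against 0.433 and was above 0 in 86.1% of the cells. The 15 lowest ratios were led by contractile genes of smooth muscle, with Lmod1, Actg2, Cnn1, Acta2, Tagln and Mylk first. Acta2 averaged 0.391 against 28.1. The other Col1a1 cells include 597 cells with Myh11 of 5 or more, which the rule kept out of the Pi16/Cd81-high cells. Other genes among the 15, such as Foxl1 and Agt, had higher means in Pdgfra-high Cd34- cells (0.691 and 3.95) than in all other Col1a1 cells (0.375 and 2.08).

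A closer comparison used the 1066 cells that passed every other limit but had a sum under 5, called Cd34+ Pi16-low cells. Their median was 2675 genes per cell with 8.66% mitochondrial. Here 433 of 8179 genes were at least 2-fold higher in the Pi16/Cd81-high cells (5.29%) and 264 at least 2-fold lower (3.23%), with a median log2 ratio of 0.05 over all genes. Ratios over means near 0 depend on the 0.01 added. Ackr4 led with a log2 ratio of 6.02 (mean 0.0103 in Cd34+ Pi16-low cells), followed by Ebf1 (5.51), Myoc (5.38), Cilp (5.19), Angptl1 (5.11), Has1 (5.07), Npy1r (4.91), Gas1 (4.81), Inmt (4.80) and C3 (4.61). Adamdec1, a secreted protease of gut stroma, had the lowest ratio. It averaged 1.42 in Pi16/Cd81-high cells, with 0, 0 and 145 as lowest, median and highest, against 35.4 in Cd34+ Pi16-low cells, with 0, 12 and 282, a log2 ratio of -4.63. Below it came Stmn2 (-3.68), Agt, the precursor of angiotensin (-3.09), the prostaglandin receptor gene Ptger2 (-3.09), Wnt4 (-3.08) and the T-box factors Tbx2 (-3.02) and Tbx3 (-2.85).

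The next comparison used the 551 Pdgfra-high Cd34- cells, with Pdgfra of 5 or more and Cd34 at 0. It gave 845 of 8371 genes at least 2-fold higher (10.1%) and 646 at least 2-fold lower (7.72%) in the Pi16/Cd81-high cells, with a median log2 ratio of 0.04. Adamdec1 averaged 34.3 in these cells, close to its mean in Cd34+ Pi16-low cells, and was above 0 in 98.4% of them. The Pi16/Cd81-high cells were thus the class of these 3 with the lowest Adamdec1. Gsn, gelsolin, which cuts actin filaments, ran the other way, with means of 225.7 in Pi16/Cd81-high, 169.0 in Cd34+ Pi16-low and 8.65 in Pdgfra-high Cd34- cells. All 10 genes of a crypt top list, among them Wnt5a, Bmp3, Bmp7 and Foxl1, were at least 2-fold lower in Pi16/Cd81-high than in Pdgfra-high Cd34- cells. Pdgfra itself is in that list and was used to choose the comparison cells. The list was chosen with earlier results of these data known.

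The Cd34+ cells were then followed across the sum that chose the cells. With a sum of 0 to 1, 2 to 4, 5 to 9, 10 to 19 and 20 or more there were 922, 144, 120, 223 and 166 cells. Adamdec1 averaged 38.4, 16.4, 4.63, 0.578 and 0.235 across these bins, and Igfbp3 13.7, 9.26, 5.78, 1.35 and 0.434. C3 averaged 0.432, 2.04, 9.38, 17.6 and 18.8 in the same bins. Grem1 averaged 1.10, 2.12, 4.01, 4.61 and 2.93, higher up to a sum of 10 to 19 and lower in the last bin. The 52 cells just inside the limit, with a sum of 5 or 6, had means of 6.94 for C3, 7.46 for Adamdec1 and 3.75 for Grem1, and the 85 cells just outside, with 3 or 4, had 3.19, 9.88 and 2.48. The 59 cells that reached the limit by Cd81 alone had a C3 mean of 2.68, a Cilp mean of 2.10 and an Adamdec1 mean of 6.03, against 17.8, 8.43 and 0.818 in the 450 cells with Pi16 or Pcolce2. The means of C3, Cilp, Adamdec1 and Igfbp3 thus shifted on both sides of the limit. Since the sum chose the cells, these bins are a description.

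**Figure D2:**
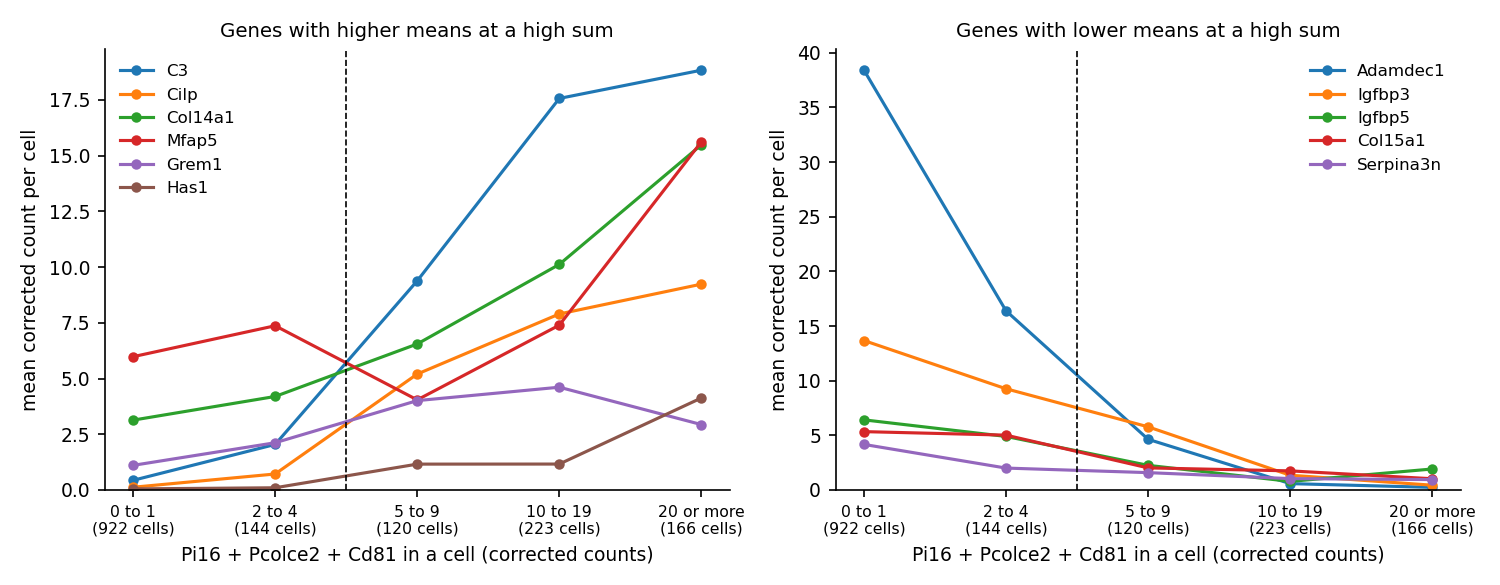
Mean corrected count per cell (y axes) of 6 genes (left) and 5 genes (right) in Cd34+ cells of the wild-type library binned by the sum of Pi16, Pcolce2 and Cd81 (x axis, cells per bin in brackets). The dashed line is the limit of 5, with the Pi16/Cd81-high cells to its right. C3 went from 0.432 to 18.8 and Adamdec1 from 38.4 to 0.235, while Grem1 was highest at a sum of 10 to 19.

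By role, the genes known from Pi16 fibroblasts of other organs were counted first. Of 23 listed genes 18 were compared, of which 14 were at least 2-fold higher and 0 lower than in the other Col1a1 cells, with a median log2 ratio of 1.48. Against Cd34+ Pi16-low cells 8 were higher and 0 lower, with a median of 0.80. Mfap5, a microfibril glycoprotein, had a mean of 9.29 against 6.17 in Cd34+ Pi16-low cells, a log2 ratio of 0.59, under 2-fold. Igfbp6, an inhibitor of IGF2, had a mean of 15.1 against 6.33 (1.25). Efhd1 (3.89), Limch1 (2.29), Anxa3 (1.58), Emilin2 (1.54) and Sema3c (1.02) were also at least 2-fold higher. Cd55, which protects cells from complement, averaged 8.82 against 4.95 in Cd34+ Pi16-low cells, a log2 ratio of 0.83. Dpp4, the best known surface marker of such fibroblasts, was above 0 in 7.07% of the Pi16/Cd81-high cells (5.00 to 9.66) and in 0.469% of Cd34+ Pi16-low cells (means 0.0943 and 0.00469), under the mean of 0.1 needed for the comparison. Epithelium makes Dpp4 itself, and 28.8% of epithelial cells were above 0. Of 18 surface markers of stromal progenitors compared with Cd34+ Pi16-low cells, rule genes left out, 0 were higher and 3 lower. Over all genes the shares were 5.29% and 3.23%, so the 0 is near the share. The lower ones were Procr (-1.71) and the adhesion molecules Ncam1 (-1.40) and Vcam1 (-1.01). Against the other Col1a1 cells 4 of 19 were higher and 3 lower, beside 5.59% and 6.26% of all genes.

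BMP ligands differed by member and by comparison. Of 10 compared, 6 were at least 2-fold lower and 1 higher than in the other Col1a1 cells, with a median log2 ratio of -1.17. Over all genes 6.26% were lower and 5.59% higher. Against Cd34+ Pi16-low cells 4 of 9 were lower and 1 higher, with a median of -0.08, and Bmp2 (0.16) and Bmp6 (-0.08) lay near 0. In that comparison 3.23% of all genes were lower and 5.29% higher. The list also held Bmp1 (0.39), an enzyme of procollagen processing rather than a ligand. The counts and medians include it, and the median near 0 depends on it. Bmp4 averaged 3.17 against 8.31 in Cd34+ Pi16-low and 10.8 in Pdgfra-high Cd34- cells. Bmp5 averaged 0.224 against 1.46 and 7.36, and Bmp7 0.0570 against 0.327 and 1.92. The 1 ligand that was higher was Gdf10, also known as Bmp3b, with a mean of 0.342 against 0.00469 in Cd34+ Pi16-low cells. Of 11 BMP antagonists compared with the other Col1a1 cells 2 were higher and 3 lower (median -0.02), and of 9 compared with Pdgfra-high Cd34- cells 3 were higher and 3 lower. Against Pdgfra-high Cd34- cells 10.1% of all genes were higher and 7.72% lower. Of 9 compared with Cd34+ Pi16-low cells, 3 were higher and 0 lower: Grem1 with a log2 ratio of 1.65, Chrdl1 (3.22) and the activin and BMP binder Fst (2.55). Chrdl1 and Fst had low means of 0.136 and 0.126.

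The Wnt genes divided by member. Of 9 Wnt ligands and R-spondins compared with Cd34+ Pi16-low cells, 3 were at least 2-fold higher and 2 lower. Over all genes the shares were 5.29% and 3.23%. In the reporter library 0 of 4 compared were higher and 2 lower, with a median log2 ratio of -1.08. The shares of all genes in that library were 3.16% and 6.13%. In the wild-type library Wnt4 averaged 0.248 against 2.17. It was above 0 in 8.25% of Pi16/Cd81-high and 62.8% of Cd34+ Pi16-low cells. Wnt5b was lower as well (log2 ratio -1.07). Wnt11 (2.38), Wnt9a (2.13) and Rspo1 (1.46) were higher at means between 0.1 and 0.2. Rspo3, an R-spondin that amplifies Wnt signals, averaged 0.291 against 0.146, a log2 ratio of 0.94. Among secreted Wnt inhibitors Sfrp4 was higher (4.41) and Sfrp2 (-1.24) and Frzb (-1.80) lower. Wnt2 and Wnt2b, canonical Wnt ligands, had means of 0.173 and 0.143 and were above 0 in 12.8% and 12.6% of Pi16/Cd81-high cells, against means of 0.291 and 0.265 and shares of 21.4% and 21.8% in Cd34+ Pi16-low cells. In epithelial cells the shares were 0.163% and 0.122%.

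**Figure D3:**
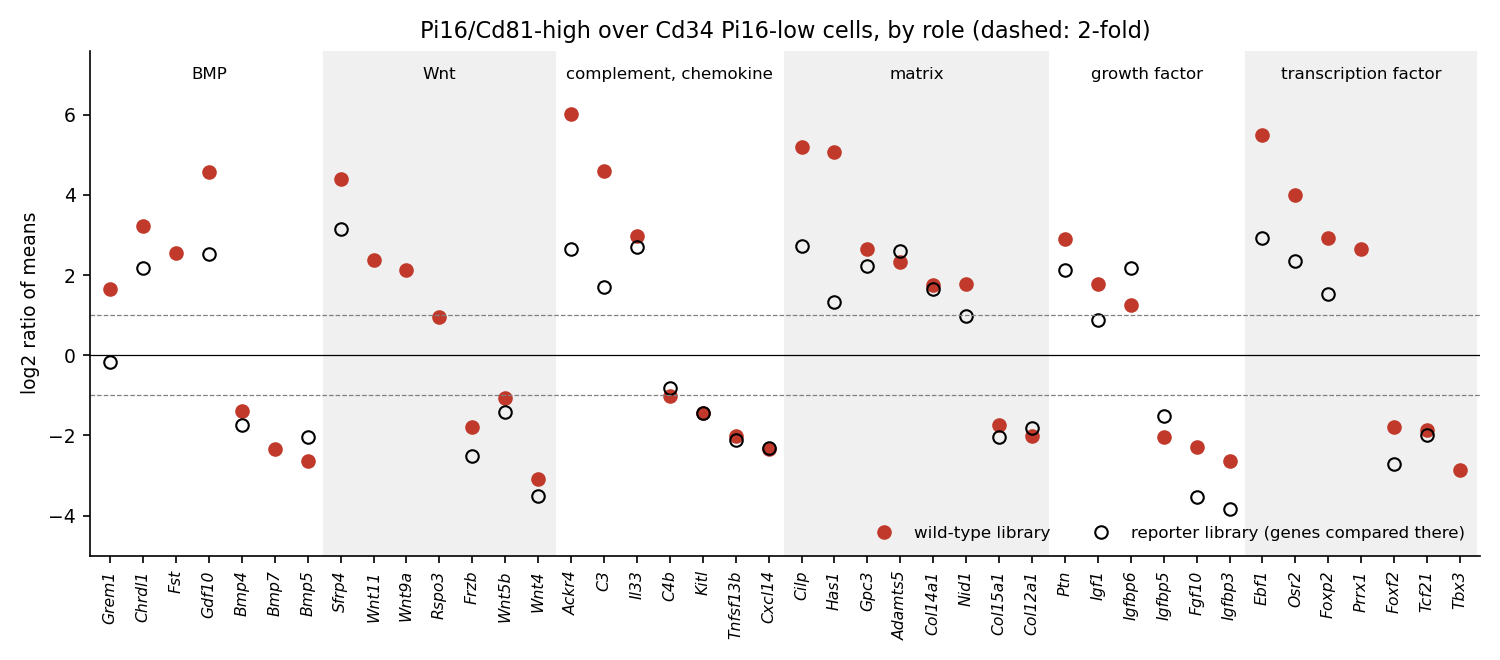
Log2 ratio of mean corrected counts, Pi16/Cd81-high over Cd34+ Pi16-low cells (y axis), for genes grouped by role (x axis). Filled points are the wild-type library and open points the reporter library, drawn where the gene was compared there, and dashed lines mark 2-fold. Ebf1 and Ackr4 lay above 2-fold in both libraries and Wnt4 and Igfbp3 below it in both, while Grem1 was at 1.65 (filled) and -0.17 (open).

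Complement and immune signals came next. Among complement genes compared with Cd34+ Pi16-low cells, C3 was higher (log2 ratio 4.61) and C4b lower (-1.01). Of 19 chemokines, scavenger receptors and cytokines, 6 were higher and 4 lower, beside 5.29% and 3.23% of all genes. Of 20 compared in the reporter library 3 were higher and 10 lower, with a median log2 ratio of -1.01 there. The shares of all genes in that library were 3.16% and 6.13%. Il33, an alarmin, was above 0 in 55.4% of the cells, with a mean of 1.27 against 0.152 in Cd34+ Pi16-low cells. Ccl2, Ccl7 and Cxcl1, which draw monocytes and neutrophils, had log2 ratios of 1.92, 1.99 and 1.93, and were above 0 in 18.5%, 10.6% and 27.9% of Pi16/Cd81-high cells. Cxcl14 (-2.33), Ccl8 (-2.31), Tnfsf13b, the B cell survival factor BAFF (-2.01), and Kitl, the ligand of Kit (-1.44), were lower. Immediate early genes, which are also induced by tissue digestion, were counted too. Egr1 averaged 27.1 in Pi16/Cd81-high against 8.74 in Cd34+ Pi16-low cells. Against Cd34+ Pi16-low cells 4 of 18 such genes were at least 2-fold higher, where 5.29% of all genes were. Against the other Col1a1 cells 1 of 18 was, where 5.59% of all genes were. In the reporter library 0 of the 18 were higher than in Cd34+ Pi16-low cells, where 3.16% of all genes were. Their part in the chemokine values was not tested.

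Matrix genes varied by member rather than as a group. Of 13 fibrillar and associated collagens compared with Cd34+ Pi16-low cells, Col8a1 (log2 ratio 1.95), Col6a3 (1.86) and Col14a1 (1.75) were higher, and Col6a5 (-2.64) and Col12a1 (-2.02) lower. Col14a1, which sits on the surface of collagen fibrils, had a mean of 11.0 and was above 0 in 95.7% of the cells. Of 15 basement membrane genes Nid1 (1.78) and Lamb2 (1.65) were higher, and Col15a1 (-1.74), Col4a6 (-1.62), Col4a5 (-1.09) and Col18a1 (-1.07) lower. Has1, a hyaluronan synthase, averaged 2.13 against 0.0535 but was above 0 in only 30.5% of the cells. Gpc3, a cell surface proteoglycan that binds growth factors, had a log2 ratio of 2.65. Of 18 proteoglycan and hyaluronan genes these were the 2 higher, and Gpc1 (-1.41) and Sdc1 (-1.26) were lower. Of 20 proteases and inhibitors 5 were higher and 3 lower. Adamts5 (2.32), Adamts1 (2.11), Serpinf1 (1.85), Plat, the tissue plasminogen activator (1.72), and Mmp3 (1.25) were higher, and Htra1 (-1.37), Mmp11 (-1.36) and Serpine2 (-1.08) lower. Mmp3 was found in few cells. It was above 0 in 4.12% of Pi16/Cd81-high cells with Pi16 of 5 or more and 3.57% of those with Pi16 at 0. The 15 compared genes of procollagen processing and crosslinking held 0 past 2-fold either way, a count near the 5.29% and 3.23% of all genes. Pcolce2 belongs to that list but was left out as a rule gene.

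Growth factor genes went both ways. Counts in this paragraph are against Cd34+ Pi16-low cells, where 5.29% of all genes were at least 2-fold higher and 3.23% lower. Igf1 averaged 2.65 against 0.770 in Cd34+ Pi16-low cells and Ptn, pleiotrophin, 0.538 against 0.0638. Ptn was above 0 in 10.6% of the cells. Efna5, an ephrin, had a log2 ratio of 3.37. Igfbp3 (mean 2.09 against 13.1) and Igfbp5 (1.5 against 6.21), which bind IGF outside the cell, were lower, as were Fgf10 (log2 ratio -2.28) and Fgfr2 (-2.03). Of 12 genes of the FGF and EGF family 4 were higher, Fgf9 (1.88), Hbegf (1.34), Fgf1 (1.21) and the EGF receptor Egfr (1.21), and 4 lower. Of 39 transcription factors 8 were higher and 8 lower. Ebf1, Osr2 (4.01), Foxp2 (2.92), Prrx1 (2.65) and Twist1 (1.27) were among those higher. Tbx3, Foxf2 (-1.80), Tcf21 (-1.87), Pitx1 (-1.74) and Runx1 (-1.50) were among those lower. Of 14 guidance genes, Sema3d (3.83), Slit2 (2.16), Slit3 (1.62) and Sema3c were higher and 5 lower, among them the receptors Robo1 (-1.15), Robo2 (-1.23) and Nrp1 (-1.19). All 8 genes of the list for the first type of crypt bottom fibroblast, among them Serpina3n, Stmn2, Igfbp3 and Col15a1, were at least 2-fold lower than in Cd34+ Pi16-low cells, with a median log2 ratio of -2.23. The list was chosen with earlier results of these data known, so this count is a description and no test.

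Within the Pi16/Cd81-high cells, Pi16 and Grem1 were found largely in different cells. Grem1 was above 0 in 147 of the 224 cells with Pi16 at 0, or 65.6% (59.0 to 71.8), and in 66 of the 285 cells with Pi16 above 0, or 23.2% (18.4 to 28.5). In Cd34+ Pi16-low cells 33.4% (30.6 to 36.3) were above 0 for Grem1. The mean of Grem1 was 6.85 in the 224 cells with Pi16 at 0, 3.00 in 115 cells with Pi16 of 1 to 4 and 0.688 in 170 cells with Pi16 of 5 or more. Cells with Pi16 at 0 and above 0 had medians of 2736 and 2802 genes. Across the 509 cells, which share a library and were chosen in part on Pi16, Spearman's rho of Pi16 and Grem1 was -0.48 and Pearson's r -0.23. Both are descriptions across cells of 1 library.

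The 4 states this gave were 219 cells with Pi16 alone (43.0%), 66 with both (13.0%), 147 with Grem1 alone (28.9%) and 77 with neither (15.1%). C3 was carried by all 4, with means of 15.1, 24.9, 17.9 and 7.47 in that order. Cilp averaged 8.17, 10.9, 7.46 and 4.05. Adamdec1 averaged 0.228, 0.833, 1.35 and 5.45, highest in the cells with neither gene. The median mitochondrial share was 5.57%, 5.30%, 6.28% and 7.39% in the same order, and its part in these values was not tested. Between cells with Pi16 alone and cells with Grem1 alone, 221 of 8295 genes were at least 2-fold higher (2.66%) and 261 at least 2-fold lower (3.15%).

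Several genes went with Pi16. Npy1r, a receptor of neuropeptide Y, averaged 1.11 in cells with Pi16 alone and 0.150 in cells with Grem1 alone, and Has1 3.92 and 0.803. Efhd1 (log2 ratio 2.42), Stmn4 (2.53), Myoc (2.21), Adamts5 (1.74) and Sema3d (1.54) were higher, and Mfap5 averaged 13.1 against 5.72. Beside Grem1 went C4b, with a mean of 4.03 against 0.457, Igfbp3 (3.71 against 0.612), Rspo3 (0.503 against 0.151), Kitl (0.401 against 0.0548) and Bmp5 (0.388 against 0.0822). Sfrp2 (log2 ratio -5.73) and Edil3 (-3.65) were lower in cells with Pi16 alone. The Sfrp2 mean there was 0.00457, under the 0.01 added to each mean, so its ratio depends on that amount. Sfrp2 was above 0 in 0.457% of cells with Pi16 alone and 12.9% of cells with Grem1 alone. Bmp4 averaged 4.77 in cells with Grem1 alone and 2.09 in cells with Pi16 alone, so the class with the antagonist also had the higher mean of this ligand. In the reporter library only 18 cells had Grem1 alone, so log2 ratios of Pi16 alone over Grem1 alone rest on few cells there. Has1 (-1.13) and Sfrp2 (0.35) had the opposite sign in that library, and Kitl was at 0.01. The other genes named above kept their sign, among them Npy1r (2.83), Sema3d (0.42), C4b (-0.96) and Igfbp3 (-1.97). Chosen after their values were seen, Apoe, an apolipoprotein, averaged 5.07 in cells with Grem1 alone against 0.680, and the Wnt ligand gene Wnt10b 0.0136 against 0.219. Rspo3 was above 0 in 33.3% of the 213 cells with Grem1 (27.0 to 40.1) and in 10.8% of the 296 without (7.51 to 14.9), and in 0.284% of epithelial cells.

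**Figure D4:**
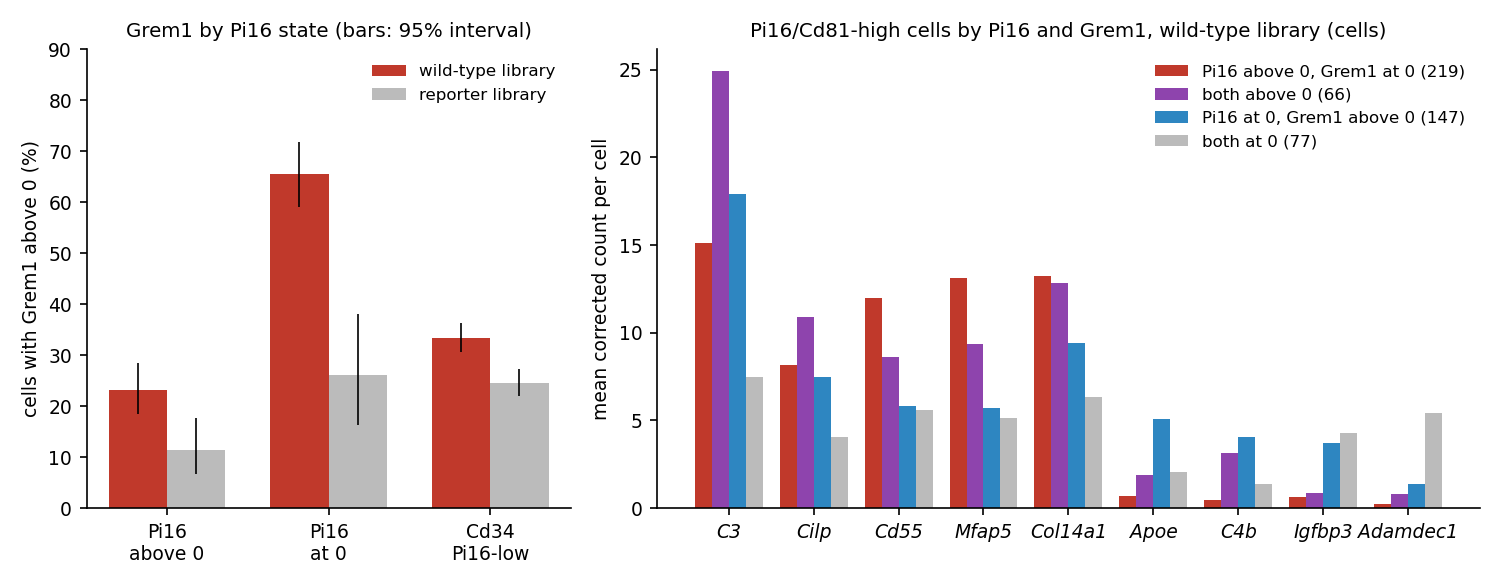
Left, percent of cells with Grem1 above 0 (y axis, with 95% Clopper-Pearson intervals) in Pi16/Cd81-high cells with Pi16 above 0, with Pi16 at 0, and in Cd34+ Pi16-low cells (x axis), for each library. Right, mean corrected count per cell (y axis) of 9 genes (x axis) in the 4 states of Pi16 and Grem1 in the wild-type library. Grem1 stood at 23.2% with Pi16 and 65.6% without it in the wild-type library, and at 11.3% and 26.1% in the reporter library.

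The same rule in the reporter library, which it was not made on, found 210 of 4409 cells (4.76%, interval 4.15 to 5.43), with a median of 1320.5 genes per cell. Corrected counts there were scaled to a lower depth (median total 3087), so levels cannot be set beside the wild-type ones and ratios within each library are given. Against the other 1933 Col1a1 cells there, 162 of 4536 genes were at least 2-fold higher (3.57%) and 308 at least 2-fold lower (6.79%). Against 1037 Cd34+ Pi16-low cells of that library, 143 of 4520 genes were at least 2-fold higher (3.16%) and 277 at least 2-fold lower (6.13%), with a median log2 ratio of -0.11. Of 4421 genes compared in both libraries, 218 were at least 2-fold higher in the wild-type library, and 109 of these (50%) were so in the reporter library, which is 82.6% of its 132. There were 155 genes lower by 2-fold with wild-type cells and 257 with reporter cells, with 132 in common (85.2% and 51.4%). Pearson's r across the 4421 genes, which are not independent, was 0.75. The same 9 genes chose the cells in both libraries.

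Past 2-fold in the same direction in both libraries were Ebf1 (2.93 in the reporter library), Sfrp4 (3.15), Npy1r (3.04), Cilp (2.74), Il33 (2.71), Ackr4 (2.66), Gpc3 (2.24), Col14a1 (1.65), Adamdec1 (-4.50), Igfbp3 (-3.83) and Wnt4 (-3.52). The list for the first type of crypt bottom fibroblast was chosen with earlier results of these data known. All 7 of its compared genes were at least 2-fold lower in the reporter library too, where 6.13% of all genes were. The ratios of Ebf1, Ackr4, Cilp and Npy1r were smaller there than in the wild-type library, where they were 5.51, 6.02, 5.19 and 4.91. C3 had a log2 ratio of 1.7 and 48.1% of the Cd34+ Pi16-low cells of that library above 0. Grem1 had a log2 ratio of -0.17, so the higher mean of the wild-type library was not seen. The sum limit of 5 was kept at the lower depth of that library, so the classes of the libraries may differ in make-up. The part of this limit in the ratios was not tested. Within the 210 cells Grem1 was above 0 in 26.1% of 69 cells with Pi16 at 0 (16.3 to 38.1) and in 11.3% of 141 cells with Pi16 above 0 (6.63 to 17.8). That is the direction of the wild-type library with intervals that overlap, and the share in Cd34+ Pi16-low cells was 24.6% (22.0 to 27.3). Genotype, sort, kit and depth all differ between the libraries and cannot be told apart.

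Markers of other cell types were then summed in each Pi16/Cd81-high cell. Of the 10 smooth muscle genes, whose sum averaged 1.34 against 72.9 in the other Col1a1 cells, Actc1 was at 0 in every Pi16/Cd81-high cell. So were Cldn5 of the blood endothelial list, Mmrn1 and Reln of the lymphatic list and Cd3e, Cd3g and Ms4a1 of the immune list. The sum of 12 immune genes averaged 2.51 against 0.257 in Cd34+ Pi16-low cells, with a median of 0 and a 95th percentile of 1 in both, and all 3 that were compared (Cd74, Cd68 and Jchain) were at least 2-fold higher. The sum of 9 mesothelial genes averaged 0.468 against 0.118, and both that were compared (Rspo1, also among the R-spondins above, and Nkain4) were at least 2-fold higher. Over all genes 5.29% were at least 2-fold higher than in Cd34+ Pi16-low cells. The sums averaged 0.202 for 10 blood endothelial genes, 0.126 for 10 glial genes and 0.660 for 10 pericyte genes. The sum of 12 epithelial genes averaged 5.99, beside 5.76 in Cd34+ Pi16-low and 285.3 in epithelial cells. A sum of 20 or more was reached by 48 cells (9.43%) for the 8 genes of the first type of crypt bottom fibroblast and by 4 for the 10 crypt top genes. It was reached by 33 cells for epithelial, 5 for red blood cell, 2 for immune, 2 for smooth muscle and 1 each for mesothelial, glial and blood endothelial genes. Their part in the results was not tested. The mesothelial cell had a sum of 61 and the highest immune cell one of 723.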

How the data were processed

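Both libraries were droplet single-cell RNA from mouse colon. The authors aligned reads to mm10 with Cell Ranger and filtered and normalised them with SCTransform in Seurat 3.1 under R 3.6.2, per the labels and methods. The deposited score values are whole-number corrected counts, not UMIs, and the deposited natural log values equal ln(1 + corrected count) within rounding. Depth as sequenced cannot be recovered, and a corrected value above 0 may stand where no molecule was read. All per-sample columns were used.

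Cells were selected by the 9-gene rule. Class means, their log2 ratios (0.01 added, mean of at least 0.1 in either class) and shares above 0 with Clopper-Pearson 95% intervals, which cover counting error only, were computed with pandas 2.3.3, numpy 2.4.6 and scipy 1.17.1 (Python 3.11.15). Doublets were called with Scrublet in scanpy 1.11.5 (132 cells, 1.76% of the library, 6 of them Pi16/Cd81-high) and kept. Figures used matplotlib 3.10.9. The ratio script was tested on simulated data. Totals of Col1a1 cells ran from 6785 to 12963 corrected counts per cell in the wild-type and from 2337 to 4049 in the reporter library.

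The text names the rule genes, the given markers, genes of role and marker lists past 2-fold, and the 15 genes with the largest ratio each way. Some genes of the lists that stayed under 2-fold are named too, among them Mfap5, Wnt2 and Wnt2b. Members and lists were chosen with earlier results of these data known. Alternatives changed the limits of the rule, the cells kept, the scaling, the pseudocount and the filter on means. Those for the shares with Grem1 were chosen after seeing the data. Promoters came from RefSeq, of which 6409 of 8179 compared genes matched by symbol. A result on 1 gene is not reported here.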

Additional observations from a re-analysis of the deposited data

Results flagged for a closer look

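Igha and Jchain, genes of antibody-producing plasma cells, had ratios in opposite directions in the libraries. Igha was higher in Pi16/Cd81-high than in Cd34+ Pi16-low cells of the wild-type library, with a log2 ratio of 6.87, and lower in the reporter library, with -1.41. Jchain had 5.14 and -2.47. With Col1a1 of at least 10, the ratio of Jchain in the wild-type library became -0.29, the direction of the reporter library. In the wild-type library Igha was above 0 in 15 of the 509 cells (2.95%, interval 1.66 to 4.81) and in 4.27% of epithelial cells. Jchain was above 0 in 9 of the 509 (1.77%), a share below the 2.44% of Cd34+ Pi16-low cells although its mean was 1.37 against 0.0291. The sum of 12 immune genes reached 20 in 2 of the 509 cells, with a highest value of 723. With 1 library of each kind the difference between them was not tested.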

How the results depend on the processing

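No paired analysis was possible because each library is 1 sample and the labels give no shared replicate numbers. Limits on the sum of 3 or 10, on Col1a1 of 10 or Cd34 of 3, leaving out Cd81, doublets or cells above 10% mitochondrial moved the 509 cells to between 389 and 594 and no count of genes by over 1.5 times, nor did scaling cells to one total or thinning them to 5000. Counts are higher and lower against the other Col1a1 cells, then against Cd34+ Pi16-low cells, then against Pdgfra-high Cd34- cells. They became 44, 34, 18, 24, 80 and 83 for means of ln(1 + value). With 0.1 added they were 265, 320, 242, 149 and 529, the last within 1.5 times at 450. With a mean of at least 0.02 they were 732, 856, 764, 445 and 1399, the last within 1.5 times at 968, and with at least 0.5 they were 200, 193, 169, 104, 329 and 305. Of 474 ratios of 237 named genes, 186 moved by over 1.5 times with 0.1 added and 361 with means of ln(1 + value), so their sizes and order depend on the amount added. Over all settings 822 moved so, and 6 values changed sign: with Col1a1 of at least 10, Cd74 became -1.96 and Jchain -0.16 against the other Col1a1 cells and -1.80 and -0.29 against Cd34+ Pi16-low cells, and with means of ln(1 + value) Hbb-bt became 0.0164 and 0.0127. The cause was not tested.

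Chosen after seeing the data, the share with Grem1 among cells with Pi16 at 0 was 72.1% without the cells that reached the limit by Cd81 alone. It lay between 60.3% and 71.3% with doublets, mitochondrial cells or a sum under 10 left out, or cells thinned, beside 20.4% to 23.2% with Pi16. In the reporter library the shares were 26.1% and 11.3%. A sum of at least 2 there gave 356 cells in place of 210. Depth as sequenced limits all shares above 0.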
